A study of Homo sapiens with 12 samples.

Results

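Keratins of basal and of simple epithelial cells were described in urothelial carcinoma cells with ectopic HOTAIR. The genes were chosen by name, with earlier results of these data known. KRT5, KRT14, KRT15 and KRT17 were taken as basal keratins, and KRT7, KRT8, KRT18 and KRT19 as simple keratins. KRT13 and KRT80 stand apart from both classes. Of these 10 genes, 9 had a probe set with a single gene symbol, 20 probe sets in all, among 44988 probe sets for 18132 genes. KRT17 had none and is not analysed here. Expression was measured on 12 Affymetrix PrimeView arrays, 3 for each of 4 groups. VM-CUB1_HOTAIR 20 and 5637_HOTAIR 4 are puromycin-selected clones of the established urothelial cancer lines VM-CUB1 and 5637 that stably carry a HOTAIR plasmid, HOTAIR being a long noncoding RNA of the HOXC locus. VM-CUB1_LV and 5637_LV carry the empty vector and went through the same selection. All cells were grown in DMEM with FCS. Each array of a group holds a separate RNA preparation of the same clone. The p-values therefore reflect how far preparations differ, with no clone-to-clone spread, and HOTAIR cannot be told apart from other differences between the clones. HOTAIR itself had no probe set of single symbol and its level is not analysed here.

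Keratins build the intermediate filaments of epithelial cells, and each filament needs a type I keratin paired with a type II keratin. In urothelium and other layered epithelia, KRT5 (type II) with KRT14 (type I) marks basal cells, and KRT15 and KRT17 are further type I keratins of basal cells. KRT8 (type II) and KRT18 (type I) are the pair of simple epithelia, joined there by KRT7 (type II) and KRT19 (type I). KRT13 (type I) belongs to non-keratinised stratified epithelia including the urothelium, and KRT80 (type II) is found in many epithelia.

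The deposited values are on a log2 scale and are centred, so that the 6 arrays of a cell line have a median of 0 for every probe set. They show how HOTAIR and vector arrays of a line differ but hold no expression level, so the keratins cannot be ranked by abundance, the epithelial identity of the lines could not be checked from keratin levels, and a fall to background cannot be told from a fall to a low level. Likewise, a gene at background in both groups cannot be told from an expressed gene without change. In RNA from whole cultures, fewer cells with a keratin and less keratin RNA per cell cannot be told apart either. A gene's value is the mean of its probe sets, and SE is the standard error from limma. "Rose" and "fell" are used for genes with a Benjamini-Hochberg adjusted p under 0.01 in limma over all 18132 genes. Correlations between replicate arrays of a group over all genes were 0.775 to 0.848 in 5637 and 0.918 to 0.948 in VM-CUB1. With values centred within a line, these correlations rise with the size of the HOTAIR difference and do not rank the lines by noise. Median absolute differences between replicate arrays were 0.0665 to 0.1016 in 5637 and 0.0737 to 0.1055 in VM-CUB1. Markers of lymphoid, myeloid, endothelial, fibroblast, smooth muscle and neural cells were read from a list of 17, of which 16 were measured. In VM-CUB1 0 of them rose, and the myeloid genes CD68 (log2 change -1.02) and CD14 (-0.36) fell (median of the list -0.07), where 41.6% of all genes were called. In 5637 0 fell and 4 rose, namely CD14 (0.92), ACTA2 (0.68), PECAM1 (0.30) and MBP (0.19), with a median of 0.02, where 29.9% of all genes were called. The part of these genes in the keratin results was not tested.

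KRT5 is the member that rose in one line and fell in the other, so the sequence around its start site is shown. It is the RefSeq window of 300 bases on the minus strand at chr12:52520345-52520644 (GRCh38.p14), printed 5′ to 3′. Capitals mark CAGGTG, an E-box of the kind bound by zinc finger repressors such as ZEB1, which begins at position -130 from the start site. Capitals further mark ATAAAA, which resembles a core promoter box and begins at position -29.
KRT5: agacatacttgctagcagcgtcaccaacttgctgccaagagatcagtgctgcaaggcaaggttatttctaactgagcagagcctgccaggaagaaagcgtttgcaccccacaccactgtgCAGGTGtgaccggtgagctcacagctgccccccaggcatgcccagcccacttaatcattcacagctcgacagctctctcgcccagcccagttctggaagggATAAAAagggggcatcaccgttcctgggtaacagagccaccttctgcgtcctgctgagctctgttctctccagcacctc
On either strand, CAGGTG is found in 20.6% of all 35116 windows of this kind and ATAAAA in 16.0%. TATAAA (11.5% of windows), GGGCGG (45.0%) and TGANTCA (7.71%) were also searched on both strands and are not among the letters of the KRT5 window. ATAAAA can overlap TATAAA. The windows of 2 members, KRT5 and KRT8, were in the table used, and none of these 5 motifs was found in that of KRT8, which lies within the annotated span of the gene. These matches are letters and were not tested as sites.

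In VM-CUB1_HOTAIR 20, most keratins were lower than in VM-CUB1_LV. Of the 9 genes measured, 6 fell, 2 rose and 1 was not called. KRT19 and KRT5 fell by far the most, KRT14, KRT13 and KRT80 fell between 2.31-fold and 3.08-fold, KRT7 fell less, and KRT18 and KRT8 rose. Over all genes, 41.6% were called in this comparison, 20.5% lower and 21.1% higher. Called and at least 2-fold lower were 5 of the 9 keratins, against 5.96% of all genes, and at least 2-fold higher were 0, against 5.74%. The arrays of the groups did not overlap for 8 of the 9 keratins, which was so for 58% of all genes. The median log2 change was -1.21 over the 9 keratins and -0.03 over all genes. The authors had reported KRT5, KRT13, KRT14, KRT19 and KRT80 as lower in this clone, as well as KRT6A and KRT6B, which are not members here. The keratins were chosen with earlier results known. The shares and median of the keratins beside those of all genes are therefore descriptions and no test.

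**Figure D1:**
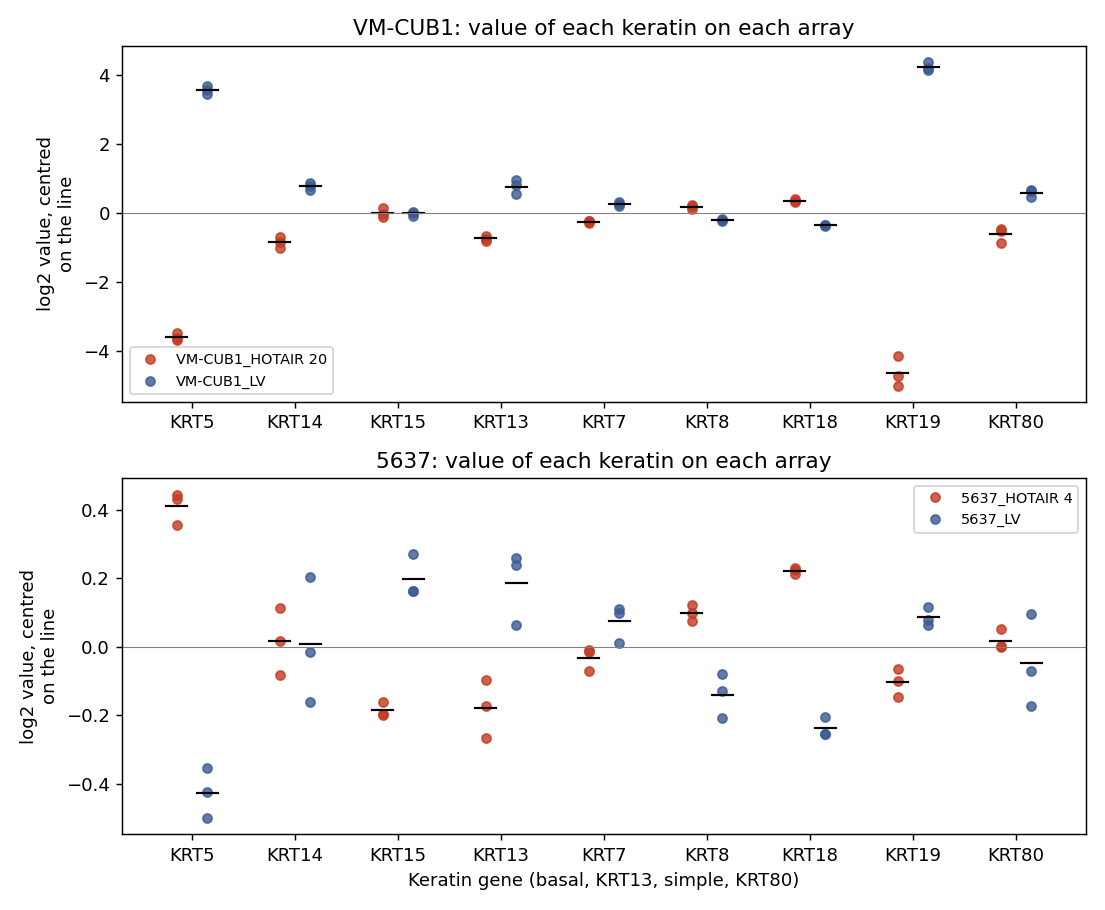
Centred log2 value of 9 keratin genes on each array, VM-CUB1 above and 5637 below, with the y scale of each panel set to its own range. Points are single arrays and bars are group means (n = 3). In VM-CUB1 the vector arrays of KRT5 and KRT19 lie at 3.47 or higher and the HOTAIR arrays at -3.47 or lower, while in 5637 the values of KRT5 lie between -0.50 and 0.44.

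Among the basal keratins, KRT5 had values of -3.62, -3.47 and -3.68 on the VM-CUB1_HOTAIR 20 arrays. On the VM-CUB1_LV arrays it had values of 3.70, 3.47 and 3.57. The groups lay far apart, and KRT5 was 144-fold lower with HOTAIR (log2 change -7.17, SE 0.080, limma adjusted p = 2.3e-10, n = 3 against 3). Both of its probe sets fell, with log2 changes of -6.84 and -7.51. KRT14, the type I partner of KRT5 in basal cells, had values of -0.68, -1.01 and -0.82 with HOTAIR. Its vector values were 0.88, 0.80 and 0.68. The groups were again apart, and KRT14 fell 3.08-fold (log2 change -1.62, SE 0.093, limma adjusted p = 1.3e-06). The log2 ratio of KRT5 to KRT14 changed by -5.55 (SD of the ratio 0.25 over the HOTAIR arrays and 0.12 over the vector arrays). KRT14 was read by a single probe set whose suffix, x_at, marks probes that may also bind related transcripts.

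KRT15 was not called. Its values were 0.16, -0.12 and -0.01 with HOTAIR and -0.07, 0.04 and 0.01 with vector. The groups overlapped, with a log2 change of 0.01 (95% confidence interval -0.17 to 0.19, limma adjusted p = 0.90). Without VM-CUB1_HOTAIR 20 replicate 1 or VM-CUB1_LV replicate 1 its log2 change was -0.060 or -0.018.

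Among the simple keratins, KRT19 had values of -4.73, -4.14 and -5.00 with HOTAIR. With vector it had 4.39, 4.22 and 4.14. Its HOTAIR arrays were more spread than its vector arrays (SD 0.44 and 0.12), but the groups lay far apart. KRT19 was 470.0-fold lower (log2 change -8.88, SE 0.191, limma adjusted p = 4.5e-09). It was read by a single probe set, as were KRT7, KRT15 and KRT80. KRT7 had -0.22, -0.22 and -0.29 with HOTAIR and 0.33, 0.28 and 0.22 with vector, without overlap. It fell 1.44-fold (log2 change -0.52, SE 0.056, limma adjusted p = 6.2e-05).

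The pair of simple epithelia moved the other way. KRT18 had values of 0.41, 0.35 and 0.33 with HOTAIR and of -0.35, -0.36 and -0.33 with vector. It rose 1.64-fold (log2 change 0.71, SE 0.0515, limma adjusted p = 5.3e-06), in both of its probe sets. KRT8 had 0.21, 0.12 and 0.23 with HOTAIR and -0.16, -0.21 and -0.18 with vector. It rose 1.29-fold (log2 change 0.37, SE 0.055, limma adjusted p = 5.1e-04). All 8 probe sets of KRT8 rose when adjusted over all probe sets, by 0.26 to 0.47 on the log2 scale. They are readings of the same gene, and 37.1% of all probe sets were called in either direction. All probe sets of KRT8 and KRT18 carry the suffix x_at, and without such probe sets neither rise can be measured. Against KRT19, the log2 ratio of KRT8 changed by 9.25, and against KRT18 it changed by -0.34.

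KRT13 had values of -0.65, -0.80 and -0.74 with HOTAIR and of 0.96, 0.82 and 0.55 with vector, without overlap. It fell 2.84-fold (log2 change -1.50, SE 0.101, limma adjusted p = 3.5e-06). Each of its 3 probe sets fell, with log2 changes of -1.03, -1.72 and -1.76, the smallest being that of the x_at probe set. KRT80 had -0.51, -0.47 and -0.87 with HOTAIR and 0.47, 0.65 and 0.67 with vector. It fell 2.31-fold (log2 change -1.21, SE 0.111, limma adjusted p = 2.5e-05), with replicate 3 of the HOTAIR clone lowest.

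**Figure D2:**
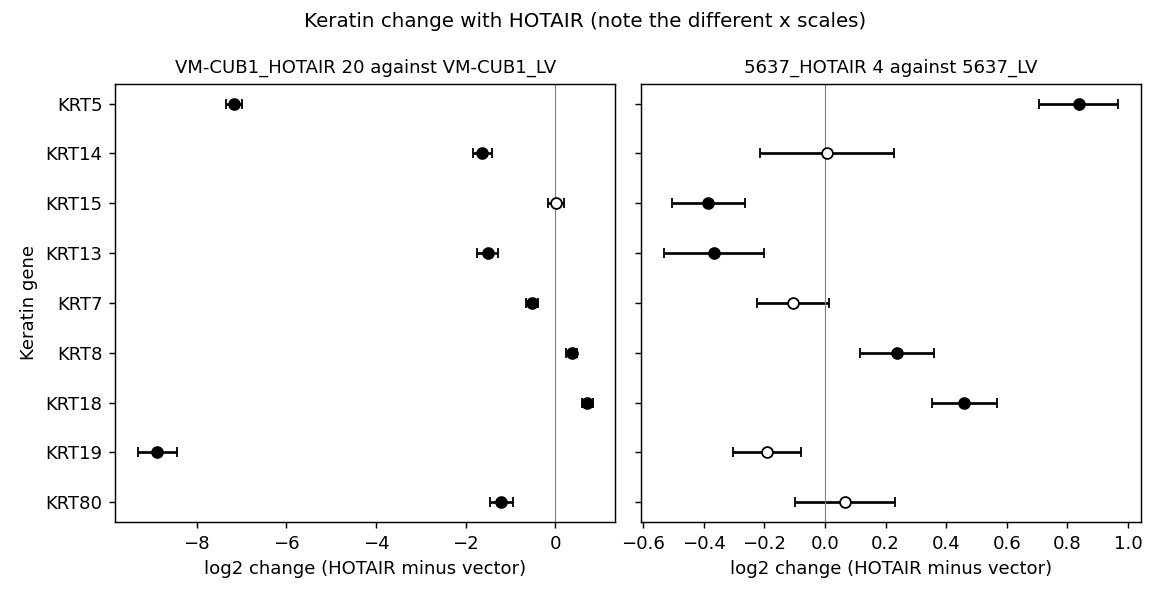
Log2 change of each keratin gene, HOTAIR minus vector, in VM-CUB1 (left) and 5637 (right), with the x scales set separately. Points are limma estimates from 3 against 3 arrays, bars are 95% confidence intervals, and open points were not called. KRT5 stands at -7.17 on the left and at 0.84 on the right.

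In 5637_HOTAIR 4 no keratin changed by 2-fold or more. Of the 9 genes, 3 rose, 2 fell and 4 were not called, where 29.9% of all genes were called, 14.7% higher and 15.2% lower. Called and at least 2-fold lower were 0.888% of all genes, and at least 2-fold higher 2.86%. The member with the largest change was KRT5, which rose, followed by KRT18. The median log2 change was 0.01 over the 9 keratins and -0.04 over all genes. The groups did not overlap for 7 of the 9, which was so for 51.3% of all genes.

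KRT5 had values of 0.36, 0.44 and 0.43 on the 5637_HOTAIR 4 arrays and of -0.50, -0.36 and -0.43 on the 5637_LV arrays. All HOTAIR arrays were higher, and KRT5 rose 1.79-fold (log2 change 0.84, SE 0.057, limma adjusted p = 1.2e-05), with both probe sets called. KRT14 was not called, with values of 0.02, 0.11 and -0.08 with HOTAIR and -0.02, -0.16 and 0.20 with vector. These groups overlapped, with a log2 change of 0.01 (95% confidence interval -0.21 to 0.23, limma adjusted p = 0.97). The sign of that change turned without 5637_HOTAIR 4 replicate 2 (-0.042) and, among vector arrays, without replicate 1 (-0.0059) or 2 (-0.078). KRT15 had -0.20, -0.20 and -0.16 with HOTAIR and 0.27, 0.16 and 0.16 with vector. It fell 1.31-fold (log2 change -0.38, SE 0.052, limma adjusted p = 5.2e-04), and the ratio of KRT5 to KRT15 was 2.33-fold higher with HOTAIR.

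KRT18 had values of 0.21, 0.22 and 0.23 with HOTAIR and of -0.26, -0.21 and -0.25 with vector. It rose 1.38-fold (log2 change 0.46, SE 0.046, limma adjusted p = 9.7e-05). KRT8 had 0.07, 0.12 and 0.10 with HOTAIR and -0.08, -0.13 and -0.21 with vector, without overlap. It rose 1.18-fold (log2 change 0.24, SE 0.053, limma adjusted p = 0.0070), but of its 8 probe sets 1 was called and 7 were not (24.7% of all probe sets were called). KRT8 missed the threshold in the methods' t-test, run here on unfiltered gene values (adjusted p = 0.016). KRT8 also missed it in limma whenever any array of 5637_HOTAIR 4, or replicate 2 or 3 of 5637_LV, was left out (adjusted p up to 0.031).

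KRT13 had values of -0.27, -0.17 and -0.10 with HOTAIR and of 0.26, 0.06 and 0.24 with vector. It fell 1.29-fold (log2 change -0.37, SE 0.072, limma adjusted p = 0.0037), with 1 of 3 probe sets called. KRT13 missed the threshold in the methods' t-test, run here on unfiltered gene values (adjusted p = 0.032). It also missed it in limma when 5637_HOTAIR 4 lost replicate 1 or 2, or when 5637_LV lost replicate 1 or 3 (adjusted p up to 0.016), and then 1 keratin was lower in place of 2. KRT19, the keratin with the largest fall in VM-CUB1, had -0.10, -0.15 and -0.06 with HOTAIR and 0.12, 0.08 and 0.06 with vector. The groups lay apart, but the difference missed the threshold (log2 change -0.19, 95% confidence interval -0.30 to -0.08, limma adjusted p = 0.014). KRT7 (log2 change -0.11, limma adjusted p = 0.14) and KRT80 (0.07, limma adjusted p = 0.51) were not called.

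**Figure D3:**
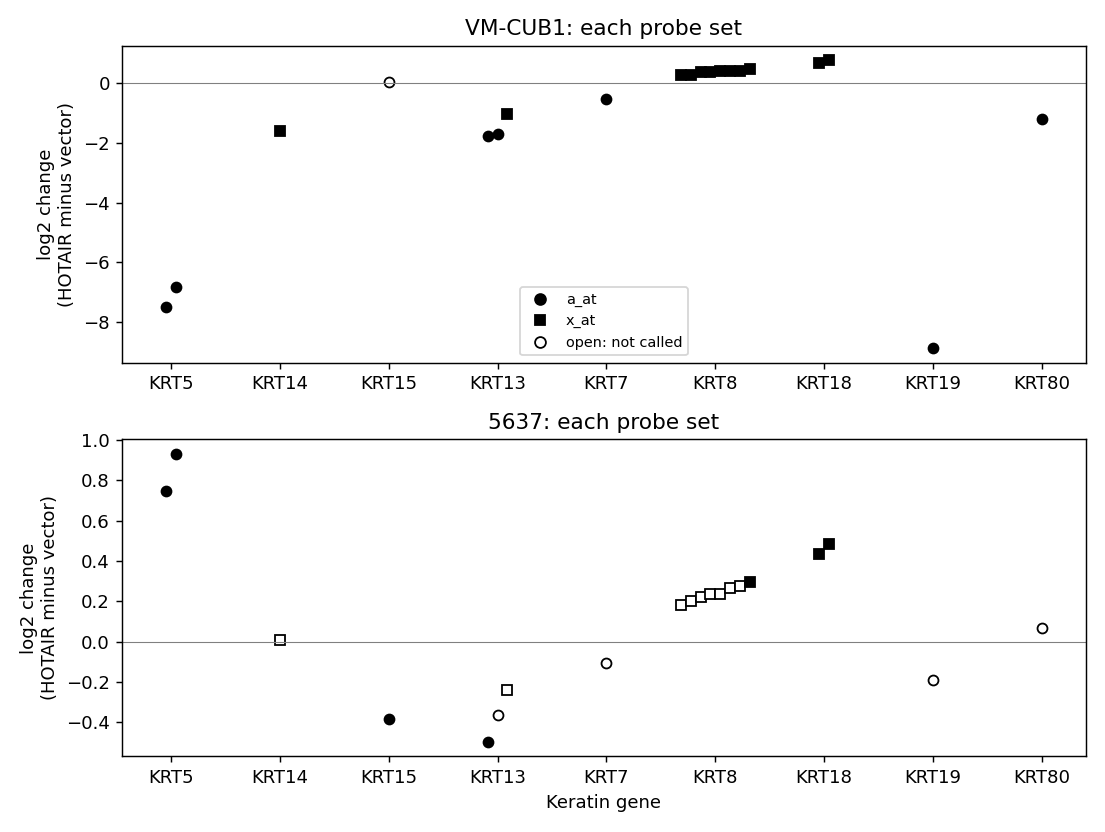
Log2 change (HOTAIR minus vector) of each of the 20 keratin probe sets, VM-CUB1 above and 5637 below. Circles are probe sets with the suffix a_at, squares those with x_at, and open symbols were not called over all probe sets. The 8 probe sets of KRT8 lie between 0.26 and 0.47 in VM-CUB1 and between 0.18 and 0.30 in 5637.

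The HOTAIR effect was then compared between the lines as an interaction over all 12 arrays, which share no control arrays between the lines. It differed for 8 of the 9 keratins (42% of all genes). The same number of keratins had at least 1 called probe set when probe sets were tested singly. Of all single probe sets 37.4% were called, a share per probe set and not per gene. KRT19 had the largest difference, -8.69 on the log2 scale (VM-CUB1 minus 5637, SE 0.220, limma adjusted p = 3.3e-12), followed by KRT5 with -8.01 (SE 0.100, limma adjusted p = 1.4e-14). For KRT14, KRT80 and KRT13 it was -1.63, -1.28 and -1.14, and for KRT7 -0.42, the highest limma adjusted p of the group being 2.3e-04, that of KRT7. KRT15 (0.40, limma adjusted p = 0.0031) and KRT18 (0.25, limma adjusted p = 0.0034) differed the other way. The call of KRT18 was lost, leaving 7 keratins, without replicate 1 of VM-CUB1_HOTAIR 20 (adjusted p = 0.010) or of 5637_HOTAIR 4 (0.011). For KRT8 the difference was 0.13 (95% confidence interval -0.02 to 0.29, limma adjusted p = 0.16), which does not show that the lines responded alike. KRT5 was called in opposite directions in the lines, as were 8.26% of all genes. KRT8, KRT18 and KRT13 were called in the same direction in both, as were 10.6% of all genes.

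Neither class moved as a block. In VM-CUB1, 2 of 3 basal keratins fell and 0 rose (median log2 change -1.62), and of 4 simple keratins 2 fell and 2 rose (median -0.08). In 5637, 1 basal keratin rose and 1 fell (median 0.01), and 2 simple keratins rose and 0 fell (median 0.07). Over all genes, 20.5% fell and 21.1% rose in VM-CUB1, and 15.2% fell and 14.7% rose in 5637. The mean of the basal genes minus the mean of the simple genes was -0.30, -0.56 and -0.32 on the VM-CUB1_HOTAIR 20 arrays and 0.45, 0.46 and 0.46 on the VM-CUB1_LV arrays, a change of -0.85 (SD 0.145 and 0.0043). The KRT17 term is missing from the basal mean. This sign rests on which genes are averaged: without x_at and s_at probe sets, which leaves KRT5 and KRT15 against KRT7 and KRT19, the change was 1.12. In 5637 the same difference was 0.03, 0.07 and -0.00 with HOTAIR and -0.05, -0.08 and 0.08 with vector. These groups overlapped, and the change was 0.05. By filament type, 3 of 5 type I and 3 of 4 type II keratins fell in VM-CUB1, with 1 of each type rising.

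**Figure D4:**
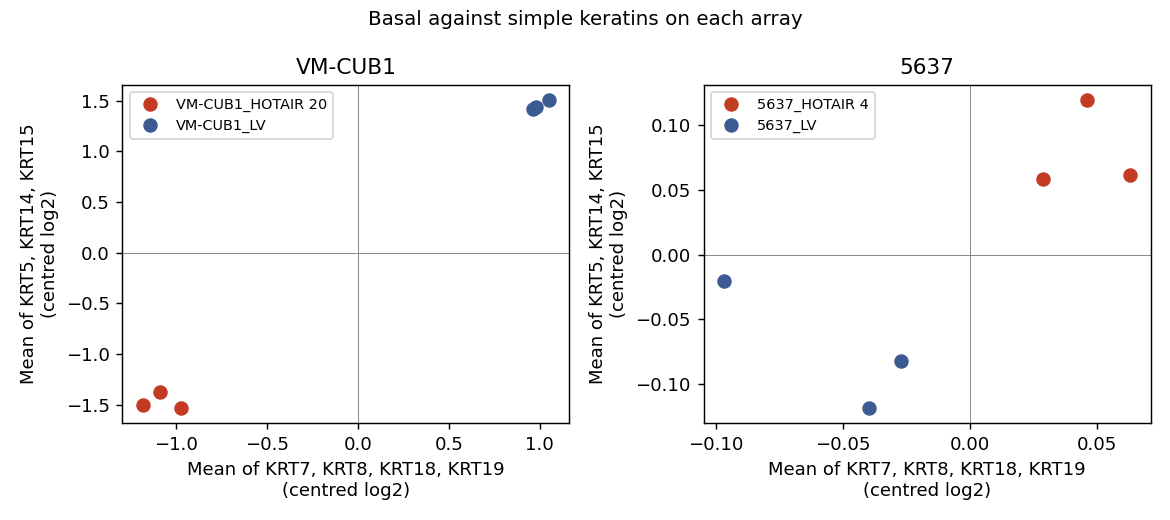
Mean of the basal keratins KRT5, KRT14 and KRT15 (y axis) against the mean of the simple keratins KRT7, KRT8, KRT18 and KRT19 (x axis) on each array, in centred log2 values, VM-CUB1 on the left and 5637 on the right with separate scales. Points are arrays. In VM-CUB1 both means are lower with HOTAIR on all 3 arrays, and in 5637 both are higher on all 3.

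Some neighbouring keratin genes had unlike changes. In the RefSeq gene order of GRCh38.p14, KRT13, KRT15 and KRT19 follow each other on chromosome 17 with 0 protein-coding genes between them. In VM-CUB1, KRT15 had a log2 change of 0.01 between KRT13 (-1.50) and KRT19 (-8.88), which fell. Whether KRT15 was expressed in VM-CUB1 cannot be read from the centred values. In 5637 the changes were -0.37 for KRT13, -0.38 for KRT15 and -0.19 for KRT19. KRT8 and KRT18, whose annotated spans overlap on chromosome 12, rose together in both lines. KRT80 and KRT7 are neighbours on the same chromosome and both fell in VM-CUB1 (log2 changes of -1.21 and -0.52).

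The genes with the most similar values were looked up over the 12 arrays. Among genes outside the members, the smallest distance over the 12 centred values to KRT19 was that of TGFBI (Euclidean distance 1.08 on the log2 scale), followed by EPCAM (1.26), an adhesion molecule of epithelial cells, and then SPP1, which encodes osteopontin. EPCAM had a log2 change of -8.21 in VM-CUB1 and of -0.21 in 5637. Nearest to KRT5 were MLLT11 (0.65), SPINT2 (0.79), an inhibitor of membrane serine proteases, and CA2 (0.79), a carbonic anhydrase. SPINT2 had log2 changes of -6.69 and 0.63. Between members, KRT8 and KRT18 were nearest to each other (0.52), followed by KRT14 and KRT13 (0.60). The nearest genes to KRT14 were RBM4, DNAAF5 and CDH18, and those to KRT13 were RDM1, PPP1R35 and CHCHD10, all within 0.408. For KRT15 they were ANAPC1, KNTC1 and UTP15, and for KRT7 MRPL47, CKS2 and GDE1. For KRT8 they were NDUFV2, RPAIN and PCMT1, for KRT18 PPP2R5E, TSPAN14 and MAP7D3, and for KRT80 TMEM144, GSTP1 and ADK. These distances are descriptions, and the arrays behind them share 4 clones.

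Of 19 other epithelial keratins listed, 16 were measured, and in VM-CUB1 0 rose and 1 fell (median log2 change -0.07), against 41.6% of all genes called. That gene was KRT6C, a keratin of stratified epithelia close in sequence to other KRT6 genes (log2 change -0.57, SE 0.0605, limma adjusted p = 6.1e-05). In 5637, KRT23 rose (0.55, SE 0.104) and KRT10, a keratin of differentiating epidermis, fell (-0.51, SE 0.059), against 29.9% of all genes called. KRT4, the type II partner of KRT13, was not called in VM-CUB1 (-0.15, limma adjusted p = 0.16) or in 5637 (-0.03, limma adjusted p = 0.74). KRT20, a keratin of umbrella cells, was not called either (-0.09, limma adjusted p = 0.33, and 0.13, limma adjusted p = 0.15).

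Of 14 genes that anchor or regulate keratin filaments, 8 fell and 3 rose in VM-CUB1 (median log2 change -0.39), where 20.5% of all genes fell and 21.1% rose. Periplakin (PPL) fell 10.7-fold, epiplakin (EPPK1) 8.45-fold and desmoplakin (DSP), which ties keratins to desmosomes, 6.64-fold. FAM83H, which organises keratin filaments, fell 4.80-fold, and the highest limma adjusted p of these genes was 5.1e-06. DNAJB6, a chaperone that binds KRT18, rose 3.68-fold, and KLHL24, an adaptor for the degradation of KRT14, rose 1.63-fold. In 5637, 4 of the 14 rose and 3 fell (median 0.04), beside 14.7% and 15.2% of all genes, with PPL 2.84-fold higher, and plectin (PLEC) 2.16-fold and FAM83H 2.57-fold lower. KLHL24 rose 1.47-fold there.

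Of 18 transcription factor genes linked to epithelial keratin genes or epithelial differentiation, 5 rose and 7 fell in VM-CUB1 (median log2 change -0.13), beside 21.1% and 20.5% of all genes. PPARG, a nuclear receptor of urothelial differentiation, rose 30.8-fold and FOXA1, a pioneer factor, 19.0-fold. TFAP2C rose (log2 change 3.64) and OVOL2, a zinc finger factor of epithelial cells, fell 11.4-fold. In 5637, 5 rose and 4 fell (median -0.02), beside 14.7% and 15.2% of all genes, with KLF4 2.82-fold and FOXA1 1.72-fold higher and OVOL1 1.99-fold and PPARG 1.73-fold lower. Among 13 other intermediate filament genes, 2 rose and 1 fell in VM-CUB1 (median -0.02), beside 21.1% and 20.5% of all genes. VIM, which encodes vimentin, the filament protein of mesenchymal cells, rose 938.5-fold (log2 change 9.87, SE 0.143, limma adjusted p = 6.3e-10). SYNM, which encodes synemin, rose 1.58-fold, and LMNA, a nuclear lamin gene, fell 2.03-fold. In 5637, 1 rose and 6 fell (median -0.29), beside 14.7% and 15.2% of all genes, with the neurofilament gene NEFL (log2 change -1.34), the lamin gene LMNB2 (-0.81), PRPH (-0.55) and VIM (-0.34) lower and INA (0.64) higher.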

How the data were processed

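Total RNA of VM-CUB1 and 5637 clones was labelled with a 3′ IVT kit and hybridised by the authors to Affymetrix PrimeView arrays. RMA summaries were made by the authors in GeneSpring GX and set against a median baseline, and the deposited log2 values are of that kind. Their median per probe set and line is 0 (6 arrays, largest remainder 5e-07), so no filter for signal above background could be applied. The table lists 49395 probe sets, of which 102 are controls and were not used. The platform annotation gives a single gene symbol for 44988, several for 1832 and none for 2473. A gene's value was the mean of its probe sets of 1 symbol.

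Groups were taken from the sample titles. For replicates 2 and 3 of both 5637 groups the source name gives another number for the line, while title and cell line read 5637. HOTAIR was compared with vector in each line with limma 3.58.1 (lmFit and eBayes, R 4.3.3), two-sided, with Benjamini-Hochberg adjustment over 18132 genes and a threshold of 0.01, and the effects of the lines were compared as an interaction over 12 arrays. Probe sets were adjusted over all probe sets. The fit was tested on simulated data of 18132 genes, with 50 genes changed per size. At log2 changes of 0.5 and 1 it called 64% and 90% in VM-CUB1 and 56% and 90% in 5637, and at 2 and 4 it called 100% in both. The simulation changed 200 genes, while 7536 genes were called in VM-CUB1 and 5430 in 5637. Its rates therefore need not hold for the data. The number of arrays limits the precision. Alternatives were the methods' t-test, 1 fit of all arrays, a replicate block, an adjusted p under 0.05, other summaries of a gene, other scalings and leaving out each array. The methods' t-test was run here on the values of all 18132 genes. The authors ran theirs on probe sets that passed a filter for signal above background, so the calls need not match. The keratins and the other gene lists were chosen with earlier results of these data known, and the promoter motifs after the values were seen. All 9 measured keratins are named, and from each other list the called genes with the 4 largest changes in a line, beside KRT4, KRT20 and DNAJB6, which were named after their values were seen. For each keratin the 3 nearest other genes by Euclidean distance were found. Python 3.11.15, pandas 2.3.3 and matplotlib 3.10.9 were used for tables and figures.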

Additional observations from a re-analysis of the deposited data

Results flagged for a closer look

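The HOTAIR effect differed between the lines by the interaction test (limma, Benjamini-Hochberg adjusted p under 0.01) for 8 keratins, beside 42% of all genes. Differences are given here on the log2 scale as VM-CUB1 minus 5637. The differences were -8.01 for KRT5, -1.63 for KRT14, 0.40 for KRT15, -1.14 for KRT13, -0.42 for KRT7, 0.25 for KRT18, -8.69 for KRT19 and -1.28 for KRT80. The highest adjusted p among them was 0.0034, that of KRT18. The call of KRT18 was lost without VM-CUB1_HOTAIR 20 replicate 1 (adjusted p = 0.010) or 5637_HOTAIR 4 replicate 1 (0.011).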

How the results depend on the processing

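In VM-CUB1, the calls of all 9 keratins stayed on their side of the threshold in all settings that measured them and in all 15 single probe sets. KRT15, which was not called, ranged from -0.060 to 0.077 when 1 array was left out, with negative values without VM-CUB1_HOTAIR 20 replicate 1 and VM-CUB1_LV replicate 1 (-0.018). Without probe sets of the suffix x_at or s_at, 0 keratins were higher in VM-CUB1 and 1 in 5637, since KRT8, KRT18 and KRT14 were then not measured, and the basal minus simple difference was 1.12 in VM-CUB1 and 0.37 in 5637. In 5637, 1 keratin was lower in place of 2 and 2 were higher in place of 3 with the methods' t-test. Over all 18132 genes that test called 3655 in 5637, in place of 5430. At an adjusted p under 0.05, 3 keratins were lower, KRT19 being added, and 7398 of all genes were called. Leaving out 1 array gave 1 to 2 lower and 2 to 3 higher keratins, with 4209 to 5089 of all genes called. KRT14, which was not called there, ranged from -0.078 to 0.104 when 1 array was left out, negative values coming without 5637_LV replicate 2 or 1 (-0.0059) and 5637_HOTAIR 4 replicate 2 (-0.042). Leaving out 1 array gave 7 to 8 keratins that differed between the lines.

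Replicate numbers were shared between groups, but same-numbered arrays of a line did not deviate together (correlations of -0.045 to 0.083), so no pairing was assumed. With the replicate block, 2 and 6 keratins were higher and lower in VM-CUB1, and 2 and 2 in 5637, where KRT8 had an adjusted p of 0.019. Over all 18132 genes the block called 6913 in VM-CUB1 and 4728 in 5637, in place of 7536 and 5430. With the block 6 in place of 8 differed between the lines, KRT15 (adjusted p = 0.014) and KRT18 (0.019) being lost. KRT18 was also lost without VM-CUB1_HOTAIR 20 replicate 1 or 5637_HOTAIR 4 replicate 1. The filter on dim probe sets was not run, since the values hold no level.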
